A study of Homo sapiens with 20 samples.

Results

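The miR-548 family is a large group of primate microRNAs (miRNAs), short RNAs that lower the output of the messenger RNAs they pair with. Members were taken by name, as every mature miRNA in the count tables whose name begins with miR-548. This gave 80 of 2588 mature names (3.09%), listed for 72 hairpins. Where a mature name was listed at several hairpins, the copy with the highest total was kept. Across 20 libraries 65 members had at least 1 read and 15 had none, and the 21 members with at least 50 reads are described by name.

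The hairpins of this family are known to derive from Made1, a short mobile element made almost entirely of a pair of inverted repeats, so that its RNA folds back on itself. They are scattered over the genome, mostly within introns or between genes, and do not form a compact cluster. A miRNA is usually cut from its primary transcript in the nucleus by DROSHA and its partner DGCR8, and then trimmed in the cytoplasm by DICER. Bases 2 to 8 of the mature miRNA, the seed, do most of the pairing with targets.

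Small RNA was sequenced from 2 human lines, HCT116 from a colon cancer and HEK293E from embryonic kidney. DROSHA knockout cells of each line received full-length DROSHA or DROSHA-p140, a shorter form of the protein, with 3 libraries per form and line. One library came from HCT116 knockout cells given GFP (green fluorescent protein) and 1 from untreated wild-type HCT116 cells. Wild-type HCT116 cells were also cultured for 72 hr in 9.1% or 0.1% FBS (fetal bovine serum), the lower level being serum starvation, in 3 libraries per level. All 4 rescued groups lack the endogenous DROSHA, and the labels used here do not say how many knockout clones were used or how the rescue proteins were driven. The comparisons address which miRNAs each DROSHA form supplies, and how miRNAs differ after serum starvation.

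The libraries held 38288 to 2822317 miRNA reads, with the lowest number in the knockout with GFP. Levels are given as CPM, miRNA counts scaled to a common library total, so each level is a share of the library, and in such bulk RNA fewer cells of a type and less RNA per cell cannot be told apart. The labels do not say that replicates were separate cultures, so the p-values reflect no more than the spread among these libraries, and part or all of that spread may be technical. Reads were not collapsed to molecules in the counts as far as stated, so counting error alone is covered by intervals and floors. miRNAs made without DROSHA, such as miR-320a and miR-484, held 4.09% ± 1.19 (SD, n = 3) of reads in HCT116 with full-length DROSHA and 15.7% ± 7.55 with p140, and 11.3% ± 0.88 and 17.7% ± 2.27 in HEK293E. The share was 69.7% in the knockout with GFP and at most 1.35% in wild-type libraries. In HCT116 the replicates numbered 3 had the lowest such share, 2.74% with full-length DROSHA and 7.05% with p140. miR-218-5p, a marker of HEK293E here, lay at 67406 to 81197 CPM in HEK293E with full-length DROSHA and 36495 to 43812 CPM with p140, and at 182 to 272 and 111 to 144 CPM in rescued HCT116. The epithelial miR-200c-3p lay at 17619 to 26326 CPM in wild-type HCT116 and at 2664 CPM in the knockout with GFP. In rescued HCT116 it lay at only 152 to 197 CPM with full-length DROSHA and 79.5 to 101 CPM with p140. miR-218-5p in both lines and miR-200c-3p in HCT116 were thus lower with p140, without overlap, as the family sum was. miR-192-5p was also lower without overlap in HCT116. The rest overlapped between forms: miR-9-5p, miR-141-3p and miR-194-5p in both lines, and miR-200c-3p and miR-192-5p in HEK293E. miR-9-5p, the other HEK293E marker, lay at 1099 to 2386 CPM in HEK293E with full-length DROSHA. In wild-type HCT116 with 9.1% FBS it lay at 1128 to 2550 CPM. The part of the markers in the results was not tested.

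Mature sequences were available in RefSeq (GRCh38.p14) for 54 of the 80 members and for 15 of the 21 with at least 50 reads. They are shown with the seed in capitals, because the seeds show how far the members differ from one another. The first group holds members with AAAGUA near their start, which differ in 1 or a few bases after it.
miR-548aq-5p: gAAAGUAAuugcuguuuuugcc
miR-548j-5p: aAAAGUAAuugcggucuuuggu
miR-548ab: aAAAGUAAuuguggauuuugcu
miR-548n: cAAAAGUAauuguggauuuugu
miR-548k: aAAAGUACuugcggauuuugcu
miR-548l: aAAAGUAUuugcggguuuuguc
The next 2 resemble that group in sequence and have other seeds.
miR-548ai: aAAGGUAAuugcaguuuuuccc
miR-548e-5p: cAAAAGCAaucgcgguuuuugc
The remaining 7 are 3p arms and members whose names give no arm, and most of their seeds differ from one another.
miR-548f-3p: aAAAACUGuaauuacuuuu
miR-548ar-3p: uAAAACUGcaguuauuuuugc
miR-548ay-3p: cAAAACCGcgauuacucuugca
miR-548o-3p: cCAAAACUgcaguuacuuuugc
miR-548u: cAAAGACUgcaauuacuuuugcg
miR-548b-3p: cAAGAACCucaguugcuuuugu
miR-548s: aUGGCCAAaacugcaguuauuuu

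The 54 sequences carried 29 different seeds. The commonest, AAAGUAA, was shared by 11 members, of which miR-548aq-5p, miR-548j-5p and miR-548ab had at least 50 reads. miR-548f-3p and miR-548ar-3p shared the seed AAAACUG. miR-548k shared AAAGUAC with miR-548av-5p, and the seed of miR-548b-3p, AAGAACC, occurred in no other miRNA of the RefSeq table. The heptamer AAAGUAA lay anywhere in 17 of the 54 members (31.5%), against 20 of all 2370 mature sequences (0.844%). Its reverse complement UUACUUU also lay in 17 members (31.5%), against 22 of all (0.928%). One or the other was present in 34 members (63.0%) and in 7 of 2315 miRNAs outside the family (0.302%); only the strand of the mature RNA was searched. Among the 15 printed sequences 7 held one of them. The median share of A and U was 66.7% in members and 47.8% in other miRNAs.

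Several members cannot be told apart by sequence. miR-548ai was identical to miR-570-5p, listed under another name, and they had 50 and 49 reads. miR-548ap-5p is contained in miR-548j-5p, miR-548av-5p in miR-548k and miR-548av-3p in miR-548o-3p, so reads could be counted for either. Copies of 1 mature name mostly had near-equal counts: the highest and lowest copy had 878 and 876 reads for miR-548d-3p, 260 and 256 for miR-548a-3p, 168 and 167 for miR-548o-3p, and 57 and 55 for miR-548i. miR-548f-3p was an exception, with 127 reads at the hairpin in PCDH15, 23 at the copy between genes on chromosome 7 and 0 at the other 3 copies.

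By position on the GENCODE 29 gene models of hg38, 40 of the 72 hairpins (55.6%) lay in introns of genes on the same strand, and 32 (44.4%) lay between genes. By the mature coordinates, no miR-548 hairpin overlapped an exon of a host gene. Of all 1881 hairpins 6.38% were exonic, and a further 8.56% were exonic in some transcripts and intronic in others. The hairpins lay on 22 chromosomes, and the 40 host genes or gene groups each held 1 of them. Of the 21 members with at least 50 reads, 12 were intronic, 5 intergenic, and 4 had copies of different classes (miR-548d-3p, miR-548a-3p, miR-548o-3p and miR-548f-3p).

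The hosts of the intronic members have varied roles. miR-548b-3p lies at chr6:119069062-119069083 on the minus strand in an intron of FAM184A. miR-548e-5p and miR-548e-3p lie on the plus strand at chr10:110988940-110988961 and chr10:110988978-110988999 in SHOC2, a scaffold of RAS signalling. miR-548k lies at chr11:70283986-70284007 on the plus strand in PPFIA1, a liprin. miR-548l lies at chr11:94466545-94466566 on the minus strand in MRE11, a nuclease of DNA break repair. miR-548aq-5p lies at chr3:185767883-185767904 on the minus strand in IGF2BP2, which binds messenger RNAs, and miR-548j-5p at chr22:26555274-26555295 on the minus strand in TPST2, a tyrosine sulfotransferase. The remaining intronic hosts were MTUS1 for miR-548v, CDC16 for miR-548ar-3p, DPY19L1 for miR-548n, LPIN1 for miR-548s and PRIM2 for miR-548u. miR-548d-3p has 1 hairpin in an intron of ATAD2 and another between genes. miR-548a-3p has 1 hairpin in the long noncoding RNA gene MIR548A1HG and 2 hairpins between genes, of which mir-548a-3 is also listed for miR-548a-5p.

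The family was a small part of every library. It held 4733 of 18182056 reads (0.0260%), and its most abundant member, miR-548d-3p, ranked 300 among all miRNAs with 878 reads. The 4 leading members, miR-548d-3p (878 reads), miR-548b-3p (496), miR-548e-3p (483) and miR-548k (385), held 47.4% of family reads, and the 21 named members held 91.7%. At least 1 read was seen for 81.25% of members against 86.4% of all miRNAs, and at least 50 reads for 26.25% against 32.4%. At the threshold, miR-548ai had 50 reads, and miR-548ag and miR-548aw had 43 each. Of the remaining members 22 had 1 to 4 reads, 8 had 5 to 9 and 14 had 10 to 49.

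A hairpin can give a mature miRNA from either side, its 5p or 3p arm. Of 29 hairpins with both arms listed, 26 had reads, and 13 of these gave at least 90% of them from 1 arm. Among the 11 with at least 50 reads 8 did so, all but mir-548e, mir-548a-3 and mir-548j. The 3p arm led at mir-548b (496 reads against 5), mir-548ar (117 against 1), mir-548ay (72 against 1) and mir-548d-1 (878 against 3). The 5p arm led at mir-548aq (136 against 3) and mir-548j (124 against 23). Both arms were abundant at mir-548e, with 483 reads from the 3p arm and 176 from the 5p arm. At mir-548a-3 the counts were 260 and 85. miR-548a-3p is also listed at mir-548a-1 (256 reads) and mir-548a-2 (260 reads), so how much of it came from mir-548a-3 is unknown. On the opposite strand of the mir-548d hairpins, miR-548aa had 0 reads.

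**Figure D1:**
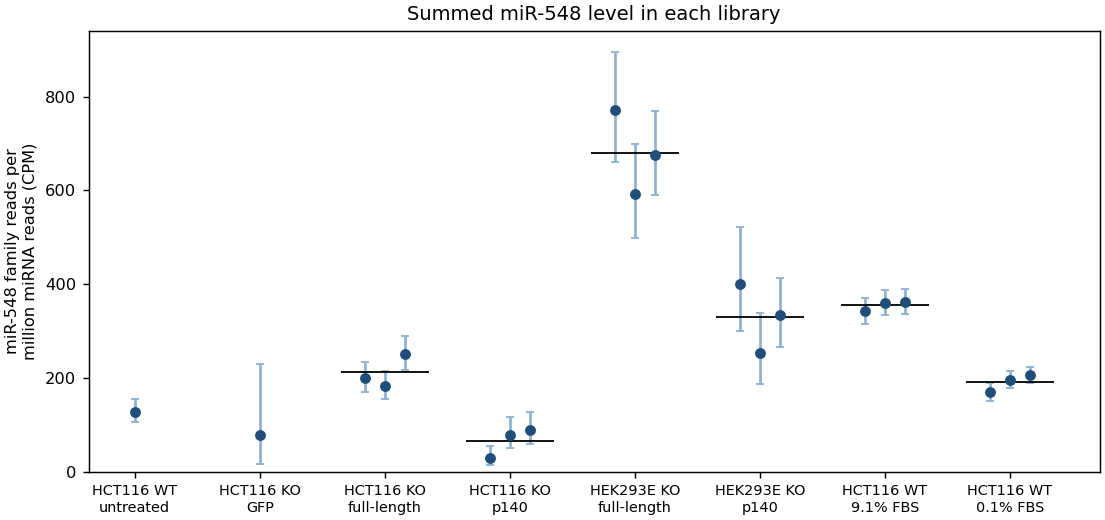
Summed level of all 80 miR-548 members in each of the 20 libraries (vertical axis, CPM, linear from 0; horizontal axis, the 8 groups). Points are libraries, bars are exact 95% binomial intervals of counting error, and horizontal lines are group means. In both lines the p140 libraries lie below the full-length ones, and the HEK293E full-length libraries are the highest.

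As CPM, the summed family level was lower in the p140 libraries of both lines, and lower in 0.1% than in 9.1% FBS. In HCT116 knockout cells it was 200.5, 183 and 251 CPM with full-length DROSHA (212 ± 35.4, SD, n = 3) and 29.3, 78.5 and 88.7 CPM with p140 (65.5 ± 31.8). In HEK293E it was 771, 592 and 676 CPM with full-length DROSHA (680 ± 89.6) and 400, 254 and 333 CPM with p140 (329 ± 73.0). The forms did not overlap in either line, and the mean was 3.23-fold lower with p140 in HCT116 and 2.07-fold lower in HEK293E. With 9.1% FBS it was 343, 360 and 362 CPM (355 ± 10.7), and with 0.1% FBS 169, 196 and 206 CPM (191 ± 19.2). These groups did not overlap either, and the mean was 1.86-fold lower in 0.1% FBS. Untreated wild-type HCT116 had 128 CPM from 110 reads, with an exact Poisson interval of 106 to 155 CPM. The order of the groups rested on the scale. Per 1000 reads of the miRNAs made without DROSHA, the family stood at 36.6 ± 7.55 in 9.1% FBS and 16.8 ± 4.99 in 0.1% FBS, above 6.02 ± 0.56 in HEK293E and 5.74 ± 2.96 in HCT116 with full-length DROSHA. With p140 it stood at 1.90 ± 0.55 and 0.604 ± 0.58 on that scale. No test was made on these sums.

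Detection followed depth as well as level. Over a group's libraries, 45 members had a read in HCT116 with full-length DROSHA and 26 with p140, 34 and 24 in HEK293E, 47 in 9.1% FBS and 49 in 0.1% FBS. At a common depth of 38288 reads the expected number per library in HCT116 was 6.17 ± 0.51 for full-length DROSHA (SD, n = 3) and 2.20 ± 0.94 for p140. It was 10.7 ± 1.15 and 5.99 ± 0.67 in HEK293E. For 9.1% and 0.1% FBS it was 8.10 ± 0.54 and 5.70 ± 0.32, so at equal depth fewer members were expected in 0.1% FBS, although slightly more were seen at the depths sequenced. miR-548a-3p was the most widely detected member, with reads in 19 libraries, and 12 members had reads in a single library.

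The knockout with GFP held 3 family reads among 38288. Of these, 2 were from miR-548q and 1 was from miR-548k, which gives 78.4 CPM with an exact Poisson interval of 16.2 to 229 CPM. Untreated wild-type HCT116 held 110 family reads from 21 members, led by miR-548e-3p (17 reads), miR-548k (16) and miR-548d-3p (11). Scaled to the depth of the knockout library, the wild-type reads would number 4.92, so a loss of the family in the knockout was not detectable at this depth as a share of reads. Set against the miRNAs made without DROSHA, the levels were far apart: 0.112 family reads per 1000 such reads in the knockout (exact Poisson interval 0.0232 to 0.328) and 10.1 in wild type (8.34 to 12.2). That ratio is 90.3, with an exact binomial interval of 30.1 to 444 for counting error. It rests on 3 reads beside 26699 in the knockout and 110 beside 10844 in wild type. A count of 0 in the knockout allows up to 78.4 CPM (3 reads), above the level of every member in untreated wild-type cells. Both conditions had 1 library, and no test was possible.

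**Figure D2:**
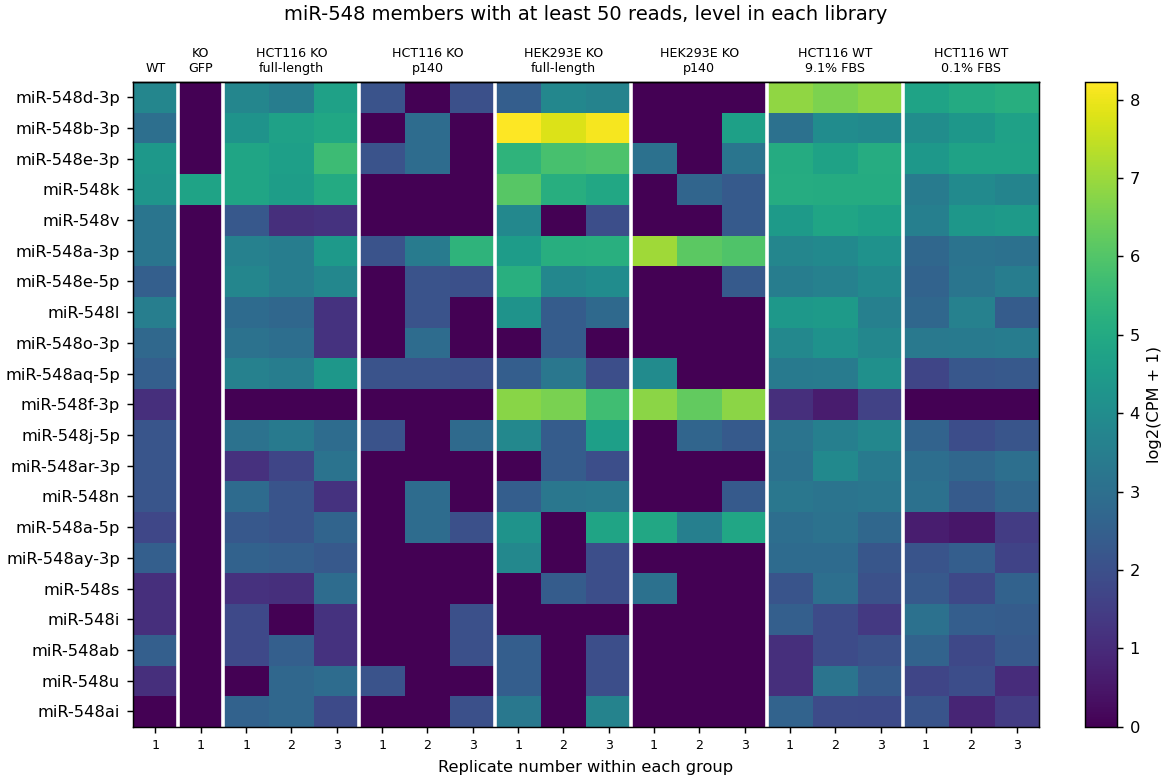
Level of the 21 members with at least 50 reads in each library, as log2(CPM + 1), with members ordered by total reads; WT and KO GFP are the single libraries of untreated wild-type and knockout HCT116. The p140 columns are darker than their full-length neighbours for most members but not for miR-548a-3p or miR-548f-3p in HEK293E, and the bright miR-548k cell under GFP is 1 read in a library of 38288.

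In HCT116 knockout cells miR-548k and miR-548e-3p fell with p140, and miR-548k was not seen there at all. miR-548k had 22, 20 and 24 reads (27.4 ± 4.27 CPM, SD, n = 3) in the 3 full-length libraries and 0 in each p140 library. This is at least 8.51-fold lower, taking 3 reads over the p140 group as the floor. Its fall passed edgeR's quasi-likelihood test with Benjamini-Hochberg adjustment over 446 miRNAs (adjusted p = 0.0025).

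miR-548e-3p had 22, 21 and 37 reads with full-length DROSHA (27.7, 24.0 and 48.4 CPM) and 1, 2 and 0 reads with p140 (3.26, 6.54 and 0 CPM). The groups did not overlap, and the miRNA fell by 3.38 ± 0.73 (SE) on the log2 scale (edgeR's quasi-likelihood test, adjusted p = 0.0080). These were the only members that passed the filter on low counts in this comparison, 18.3 CPM in 3 libraries. Each reached it in 3 full-length libraries and 0 p140 libraries, so both passed only through the group where they are high. Both fell, where 31.2% of the miRNAs tested were called lower and 28.5% higher.

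The other abundant members were too low for that filter and were tested without it. In that fit 6 of 20 named members were called lower, against 24.8% of miRNAs with at least 50 reads. The 6 include miR-548k and miR-548e-3p, which had passed the filter. miR-548b-3p had 14, 22 and 22 reads with full-length DROSHA and 0, 2 and 0 with p140. Without the filter edgeR's quasi-likelihood test put it at -3.71 ± 0.81 on the log2 scale (adjusted p = 8.1e-05). From the same counts as above, that fit gave miR-548e-3p and miR-548k far smaller adjusted p, 7.9e-06 and 1.4e-07 by edgeR. The p-values with and without the filter are therefore not comparable between members. The 2 groups did not overlap.

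miR-548d-3p went from 10, 9 and 19 reads to 1, 0 and 1 (log2 fold change -3.12 ± 0.87, adjusted p = 0.0031 by edgeR's quasi-likelihood test without the filter). miR-548e-5p, from the same hairpin as miR-548e-3p, went from 10, 9 and 10 reads to 0, 1 and 1 (-2.73 ± 0.92, adjusted p = 0.020 by edgeR). miR-548aq-5p went from 9, 9 and 15 reads to 1 in each p140 library (-2.39 ± 0.82, adjusted p = 0.025 by edgeR). For all 3 the full-length libraries lay above every p140 library.

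miR-548a-3p differed from these members. It had 9, 9 and 16 reads (14.2 ± 5.86 CPM) with full-length DROSHA and 1, 3 and 13 reads (17.6 ± 19.5 CPM) with p140, and the groups overlapped. Replicate 3 alone held 13 of the 17 p140 reads. The log2 fold change without the filter was -0.03 ± 0.58 (edgeR's quasi-likelihood test, adjusted p = 0.99), which leaves changes in either direction possible. miR-548f-3p had no reads in any rescued HCT116 library.

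Over all 21 members the mean was lower with p140 for 19 and higher for 1. The libraries did not overlap, with p140 lower, for 11 members (52.4%), against 28.4% of the 839 miRNAs with at least 50 reads. Of these 11, 5 had no reads with p140, and for miR-548v (5 reads against 0) and miR-548s (7 against 0) the shallower p140 libraries allowed no fall to be shown, since 3 reads over the p140 group would exceed the full-length level as CPM. No member was higher without overlap, against 27.1%. Of the 11, 9 were intronic (miR-548b-3p, both arms of miR-548e, miR-548k, miR-548v, miR-548aq-5p, miR-548j-5p, miR-548ar-3p and miR-548s), miR-548ay-3p was intergenic, and miR-548d-3p has copies of both classes. Among all 21 members 12 were intronic, and both arms of miR-548e come from the same hairpin. The median log2 ratio of CPM + 1 was -1.44 over the 21 members, -0.27 over 500 other intronic miRNAs and 0.30 over 183 other exonic or intergenic miRNAs with at least 50 reads. Of the 21 members, 5 had reads with full-length DROSHA and none with p140. The unnamed 59 members together had 48 reads with full-length DROSHA and 18 in the shallower p140 libraries, which is 19.7 and 19.2 CPM over the pooled groups.

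With the replicates numbered 3 left out of both groups, miR-548k and miR-548e-3p were still called lower, the latter by 2.37 on the log2 scale, and the family sum was lower by 1.83 on the log2 scale, against 1.69 with all libraries. Scaled to the miRNAs made without DROSHA, the family sum was lower by 3.25. On that scale the median of all tested miRNAs was also lower, at -1.63 against -0.11. Summed blood-cell markers, a check on other cell types, stood at 28.6 to 39.3 CPM with full-length DROSHA and 6.51 to 45.9 CPM with p140, with miR-223-3p at 0 throughout.

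**Figure D3:**
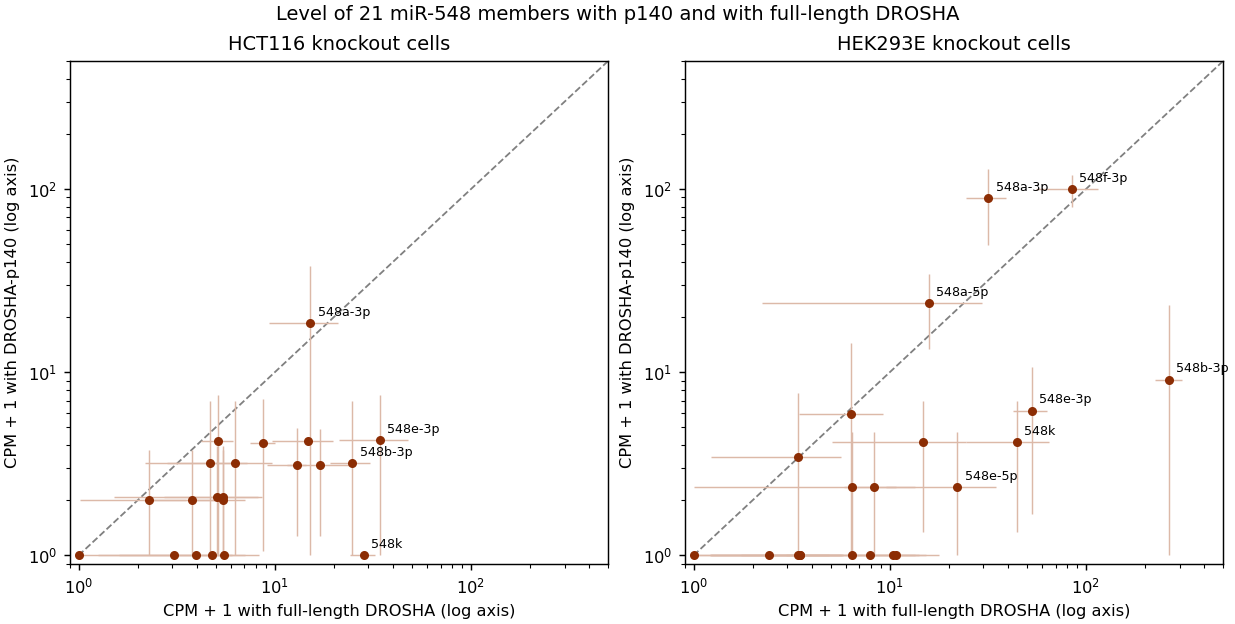
Mean level of the 21 members with p140 (vertical) against full-length DROSHA (horizontal), as CPM + 1 on log axes, in HCT116 (left) and HEK293E (right) knockout cells; bars are SD over 3 libraries, drawn down to 0 CPM where the SD exceeds the mean, and the dashed line marks equal levels. Most points lie below the line. Above it lie miR-548a-3p in HCT116, and miR-548a-3p, miR-548f-3p, miR-548a-5p and, barely, miR-548s in HEK293E.

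In HEK293E knockout cells miR-548b-3p fell with p140, miR-548a-3p rose, and miR-548f-3p was not called. miR-548b-3p had 67, 51 and 93 reads with full-length DROSHA (299, 219 and 277 CPM), where it made up 39.2% of all family reads, and 0, 0 and 6 reads with p140 (0, 0 and 24.4 CPM). No p140 library came near the full-length ones. It fell by 4.54 ± 0.61 on the log2 scale (edgeR's quasi-likelihood test with Benjamini-Hochberg adjustment over 416 miRNAs, adjusted p = 2.8e-04).

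miR-548a-3p had 5, 8 and 12 reads with full-length DROSHA (22.3, 34.3 and 35.7 CPM) and 18, 13 and 15 with p140 (133, 70.2 and 61.0 CPM). Every p140 library was above every full-length library. The rise was 1.51 ± 0.41 on the log2 scale (edgeR's quasi-likelihood test, adjusted p = 0.020). This call depended on the libraries and the scale: without full-length replicate 1 the adjusted p of edgeR was 0.054 (log2 fold change 1.35), without p140 replicate 1 it was 0.073 (1.14), and scaled to the miRNAs made without DROSHA it was 0.15 (0.78).

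miR-548f-3p had 24, 22 and 17 reads with full-length DROSHA (84.0 ± 29.6 CPM) and 15, 14 and 27 with p140 (98.8 ± 20.1 CPM). The groups overlapped, and the log2 fold change of 0.34 ± 0.36 did not pass (edgeR's quasi-likelihood test, adjusted p = 0.55); on the scale of the miRNAs made without DROSHA its sign turned, to -0.35. Over all libraries its counts were mostly listed at the hairpin in an intron of PCDH15, a protocadherin. These 3 members were the ones that passed the filter, which here asked for 43.7 CPM in 3 libraries. miR-548f-3p reached it in both groups, miR-548b-3p only with full-length DROSHA and miR-548a-3p only with p140, so each of the latter 2 passed through the group where it is high. With that limit, 1 was called lower and 1 higher, where 21.2% of all miRNAs tested were called lower and 5.29% higher.

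Without the filter 2 further members were called lower, giving 3 lower (12.8% of miRNAs with at least 50 reads) and 1 higher (2.48%). There the adjusted p by edgeR was 7.8e-19 for miR-548b-3p and 0.028 for miR-548a-3p, so p-values with and without the filter are not comparable. miR-548e-3p had 9, 13 and 20 reads with full-length DROSHA and 1, 0 and 2 with p140 (log2 fold change -3.14 ± 0.72, adjusted p = 4.5e-04 by edgeR's quasi-likelihood test). miR-548k had 15, 8 and 10 reads and then 0, 1 and 1 (-3.36 ± 0.82, adjusted p = 0.0010 by edgeR). In both the full-length libraries lay above all p140 libraries. miR-548d-3p had 1, 3 and 4 reads with full-length DROSHA and 0 in each p140 library, at least 1.80-fold lower after TMM scaling, with 3 reads over the p140 group as the floor.

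miR-548a-5p, which shares the mir-548a-3 hairpin with miR-548a-3p, had 4, 0 and 9 reads with full-length DROSHA and 4, 2 and 7 with p140. The groups overlapped widely, and its log2 fold change without the filter was 0.53 ± 0.67 (edgeR, adjusted p = 0.68).

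Over all 21 members the mean was lower with p140 for 16 and higher for 4. For 7 members (33.3%) every p140 library was lower than every full-length one, against 23.4% of miRNAs with at least 50 reads, and 1 member, miR-548a-3p, was higher, against 7.03%. Of the 7, 6 were intronic (miR-548b-3p, both arms of miR-548e, miR-548k, miR-548l and miR-548n). Among all 21 members 12 were intronic, and both arms of miR-548e come from the same hairpin. Of the 21 members, 8 had reads with full-length DROSHA and none with p140. With p140, miR-548f-3p (30.6%) and miR-548a-3p (25.1%) held most of the family reads, followed by miR-548ag (9.29%) and miR-548aw (8.74%), both under 50 reads in all and named here after their values were seen. The markers of other cells moved too: the blood-cell list summed to 446 to 944 CPM with full-length DROSHA and 111 to 248 CPM with p140, nearly all of it miR-486-5p, with miR-223-3p at 0, and the part of this in the results was not tested.

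Grouped by position, intronic members held most of the difference between DROSHA forms. In HCT116 the 47 intronic members summed to 152 ± 29.2 CPM (SD, n = 3) with full-length DROSHA and 31.0 ± 16.7 CPM with p140. In HEK293E they summed to 481 ± 74.9 and 75.4 ± 24.4 CPM. In both lines the forms did not overlap. Much of the HEK293E difference lay in miR-548b-3p, which held 211 of the 380 intronic reads with full-length DROSHA. It went from 265 ± 41.3 CPM there to 8.13 ± 14.1 CPM with p140.

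The 25 intergenic members summed to 23.4 ± 4.74 and 11.6 ± 7.66 CPM in HCT116. In HEK293E they summed to 62.1 ± 27.8 CPM with full-length DROSHA and 58.5 ± 15.0 CPM with p140, which differed by less than the spread. The 8 members with copies of both classes, which include miR-548f-3p and miR-548a-3p, went from 137 ± 17.7 to 195 ± 43.4 CPM in HEK293E and from 35.8 ± 10.2 to 23.0 ± 17.5 CPM in HCT116. The difference between classes within the family was not tested.

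No member was called different between the lines in its response to p140. The test of that difference was the line by DROSHA form interaction over 12 rescued libraries. Of the 4 members that passed the filter, miR-548f-3p was fitted and not called. Its estimate is left out, since all HCT116 libraries were at 0 and give no change to compare. Among miR-548a-3p, miR-548b-3p and miR-548e-3p, 0 had an adjusted p under 0.05 with edgeR or with DESeq2. With edgeR 3.3% of 515 miRNAs were called. An unadjusted p under 0.05 was also found for 0 of these members with edgeR. For miR-548a-3p the difference, HEK293E minus HCT116, was 1.21 ± 0.82 on the log2 scale (edgeR's quasi-likelihood test, adjusted p = 0.46). Without p140 replicate 3 of HCT116, which held most of its reads there, it was 2.57 (adjusted p = 0.037 by edgeR). For miR-548b-3p it was -1.19 ± 1.71, and for miR-548e-3p 0.18 ± 1.32.

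The lines differed in which members they held when both had full-length DROSHA. miR-548f-3p had 24, 22 and 17 reads in HEK293E and 0 in all 3 HCT116 libraries, at least 30.7-fold higher after TMM scaling (3 reads over the HCT116 group as the floor; edgeR's quasi-likelihood test over 517 miRNAs, adjusted p = 1.3e-04). As unscaled CPM the bound was 64.4-fold, and on the scale of the miRNAs made without DROSHA 23.7-fold. It was not wholly absent from HCT116 cells, since untreated wild-type cells had 1 read and the 9.1% FBS libraries 2, 1 and 4. miR-548b-3p stood at 17.7, 25.2 and 28.8 CPM in HCT116 and at 299, 219 and 277 CPM in HEK293E, and was higher by 2.40 ± 0.28 on the log2 scale after TMM scaling (edgeR, adjusted p = 5.5e-05).

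These 2 were called higher among 5 members tested, where 33.7% of miRNAs were called higher and 30.4% lower. Both passed the filter, 18.2 CPM in 3 libraries, through HEK293E, where they are high: miR-548f-3p reached it in 0 and miR-548b-3p in 2 of the HCT116 libraries. miR-548e-3p (-0.40 ± 0.35), miR-548k (-0.42 ± 0.37) and miR-548a-3p (0.09 ± 0.39) were not called, all in log2 units. The libraries of the lines did not overlap for 3 members that were higher in HEK293E (against 50.1% of miRNAs with at least 50 reads) and 1 that was lower, miR-548aq-5p (against 14.3%). The family sum was 3.21-fold higher in HEK293E as CPM, a log2 ratio of 1.68. It was 0.63 after TMM scaling and 0.07 on the scale of the miRNAs made without DROSHA, so the size of this difference rested on the scaling.

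In serum starvation, among the members that passed the filter, 5 fell and miR-548b-3p rose. The serum libraries were the deepest, and 14 members passed the filter. Of these, 5 were called lower and 1 higher, where 20.3% of the 577 miRNAs tested were called lower and 25.5% higher. Among those called lower, miR-548a-5p, miR-548aq-5p and miR-548j-5p passed the filter (5.27 CPM in 3 libraries) only through 9.1% FBS, where they are high. The most abundant member, miR-548d-3p, had 203, 179 and 216 reads in 9.1% FBS (116, 95.8 and 112 CPM) and 47, 77 and 97 in 0.1% FBS (26.6, 31.7 and 34.4 CPM). The groups were far apart, and it fell by 1.38 ± 0.16 on the log2 scale (edgeR's quasi-likelihood test with Benjamini-Hochberg adjustment, adjusted p = 3.9e-04). Its share of family reads was 30.4% in 9.1% FBS and 16.3% in 0.1% FBS. In untreated wild-type cells, a single library, it stood at 12.8 CPM with an exact Poisson interval of 6.41 to 23.0 CPM, below both serum groups.

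miR-548a-5p had 12, 14 and 11 reads in 9.1% FBS and 1, 1 and 5 in 0.1% FBS, and fell by 2.28 ± 0.49 on the log2 scale (edgeR's quasi-likelihood test, adjusted p = 0.0053). miR-548k had 58, 60 and 63 reads (33.2, 32.1 and 32.7 CPM) and then 17, 35 and 34 (9.62 to 14.4 CPM), and fell by 1.01 ± 0.21 (edgeR, adjusted p = 0.0043). Both had groups that did not overlap. The 3 libraries in 9.1% FBS were within a narrow range for miR-548k, at 32.7 ± 0.57 CPM.

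Among the members with the seed AAAGUAA, miR-548aq-5p had 16, 18 and 32 reads in 9.1% FBS and 4, 9 and 11 in 0.1% FBS, and fell by 1.38 ± 0.36 (edgeR's quasi-likelihood test, adjusted p = 0.014). miR-548j-5p had 14, 20 and 25 and then 9, 7 and 10, and fell by 1.09 ± 0.33 (edgeR, adjusted p = 0.025). The third, miR-548ab, did not share that direction: it had 2, 5 and 6 reads and then 9, 6 and 11, and its log2 fold change of 1.10 ± 0.53 without the filter did not pass (edgeR, adjusted p = 0.17). Leaving out 0.1% FBS replicate 1 took miR-548aq-5p out of the calls (adjusted p = 0.060 by edgeR). miR-548j-5p was not called with DESeq2 (adjusted p = 0.077), nor without 9.1% FBS replicate 2 or 3 or 0.1% FBS replicate 2 or 3 (adjusted p = 0.063 to 0.080 by edgeR).

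miR-548b-3p had 13, 28 and 27 reads in 9.1% FBS (7.45, 15.0 and 14.0 CPM) and 27, 47 and 71 in 0.1% FBS (15.3, 19.4 and 25.2 CPM). The groups nearly met but did not overlap. It rose by 1.13 ± 0.31 on the log2 scale (edgeR's quasi-likelihood test, adjusted p = 0.017). It was not called without 0.1% FBS replicate 3 (0.86, adjusted p = 0.068 by edgeR), in the joint fit of 18 libraries (0.93, adjusted p = 0.11), or on the scale of the miRNAs made without DROSHA (0.50, adjusted p = 0.37), where the median of all tested miRNAs was -0.67 against -0.03.

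**Figure D4:**
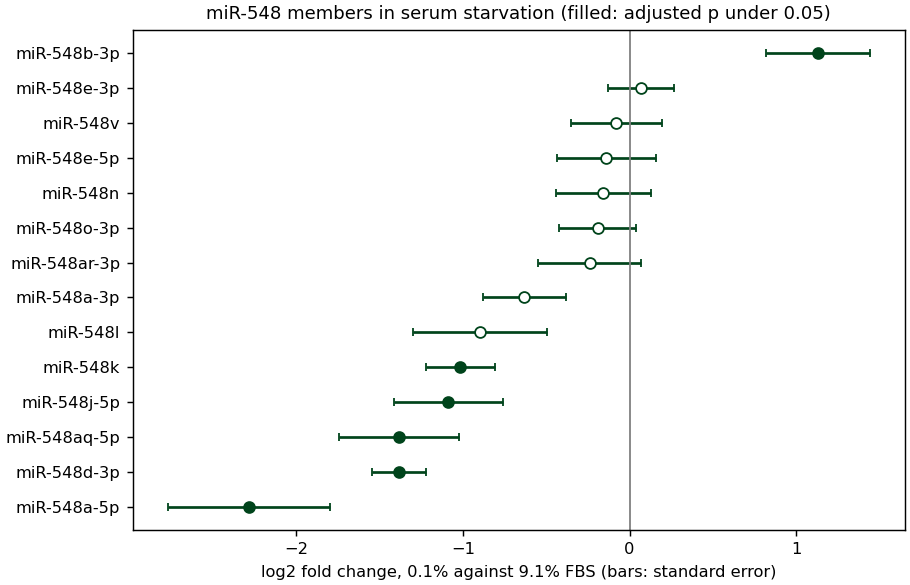
Log2 fold change of the 14 members tested, 0.1% against 9.1% FBS (horizontal axis; bars are standard errors, n = 3 libraries per group; filled points have an adjusted p under 0.05 by edgeR's quasi-likelihood test). The 5 filled points on the left run from miR-548a-5p at -2.28 to miR-548k at -1.01, and the filled point on the right is miR-548b-3p at 1.13.

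The other 8 members tested were not called. miR-548e-3p had 56, 48 and 64 reads in 9.1% FBS and 35, 62 and 73 in 0.1% FBS, with a log2 fold change of 0.07 ± 0.20 (edgeR's quasi-likelihood test, adjusted p = 0.80). miR-548v had 37, 52 and 47 and then 19, 47 and 60 (-0.08 ± 0.27, adjusted p = 0.84 by edgeR). The libraries of the groups overlapped for both.

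miR-548l had 35, 40 and 21 reads and then 10, 27 and 12, with a log2 fold change of -0.90 ± 0.40 (edgeR's quasi-likelihood test, adjusted p = 0.099). With the replicate number as a block it was called (-0.89, adjusted p = 0.0037 by edgeR). That fit called 63.6% of all miRNAs tested, against 45.8% without the block. miR-548a-3p, at 14.5 ± 2.33 and 6.98 ± 1.16 CPM, had -0.63 ± 0.25 (adjusted p = 0.069 by edgeR) and was called with the block (-0.65, adjusted p = 0.042). The remaining 4, miR-548e-5p, miR-548n, miR-548o-3p and miR-548ar-3p, had log2 fold changes of -0.24 to -0.14.

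Without the filter, miR-548l (-0.84, adjusted p = 0.044 by edgeR) and miR-548i were also called. miR-548i had 8, 5 and 3 reads in 9.1% FBS and 13, 11 and 12 in 0.1% FBS, and its libraries overlapped as CPM (2.94 ± 1.53 and 5.38 ± 1.72). In that fit it rose by 1.28 ± 0.46 on the log2 scale (edgeR's quasi-likelihood test without the filter, adjusted p = 0.038). There 14.1% of miRNAs with at least 50 reads were called lower and 20.3% higher.

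Over all 21 members the mean CPM was lower in 0.1% FBS for 18 and higher for 3. For 11 members (52.4%) every 0.1% FBS library was below every 9.1% FBS library, against 38.7% of miRNAs with at least 50 reads. Counting miR-548b-3p, which was above, 12 members (57.1%) did not overlap in either direction, against 50.8%. The median log2 ratio of CPM + 1 was -0.57 over the members and -0.37 over the 818 other miRNAs, so lower CPM was also usual outside the family. The family sum was lower by 0.90 on the log2 scale as CPM, by 0.49 after TMM scaling and by 0.63 without miR-548d-3p. Intronic members summed to 193 ± 16.5 CPM in 9.1% FBS and 123 ± 17.4 CPM in 0.1% FBS, and intergenic members to 23.7 ± 3.99 and 20.2 ± 3.63 CPM, the latter differing by less than the spread. Beside these results, the blood-cell markers summed to 53.3 to 72.6 CPM in 9.1% FBS and 183 to 203 CPM in 0.1% FBS. None of the 5 was at 0, and miR-486-5p and both arms of miR-142 were higher in 0.1% FBS. The others were lower without overlap: miR-150-5p at 5.71 to 7.49 and then 1.77 to 3.96 CPM, and miR-223-3p at 3.11 to 9.09 and then 0.709 to 2.06 CPM. The part of these markers in the results was not tested.

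The relatives listed under other names were compared beside the family. miR-570-3p, whose hairpin lies in an intron of MUC20-OT1, had 349 reads. In HCT116 it had 10, 12 and 21 reads with full-length DROSHA and 0, 1 and 1 with p140 (log2 fold change without the filter -3.29 ± 0.85, edgeR's quasi-likelihood test, adjusted p = 0.0013). In HEK293E it had 2, 8 and 8 reads and then 1, 0 and 1. With 9.1% FBS it had 45, 54 and 59 reads and with 0.1% FBS 22, 40 and 60 (-0.33 ± 0.23, adjusted p = 0.27 by edgeR). miR-603 had 0 reads in all libraries.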

How the data were processed

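Small RNA of 20 libraries was analysed from the counts the authors deposited, whole reads for each mature miRNA at each hairpin with no normalization. The tools named in the submitters' processing notes are cutadapt, STAR and bedtools, and the build is hg38. Their versions, the annotation release and the handling of multiply mapped reads are not stated in these sources, so counts of copies cannot be assigned to 1 hairpin. The 2813 listed values were reduced to 2588 mature names, keeping the copy with the highest total. Groups came from the sample titles. Members with at least 50 reads were named; the members and all lists were chosen with earlier results of these data known.

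The test was the two-sided quasi-likelihood F test of edgeR 4.0.16 (R 4.3.3) with TMM scaling, after filterByExpr with min.count 10, each comparison fitted on its own groups. Benjamini-Hochberg adjustment ran over all miRNAs tested, with a threshold of 0.05. The code was tested on simulated data. Alternatives were DESeq2 1.42.0, other scaling (including 22 DROSHA-independent miRNAs), no filter, the lowest copy, a joint fit, a replicate block and leaving out libraries. CPM uses the miRNA total. Detection at a common depth is the hypergeometric expectation. Floors are 3 reads. Intervals are exact at 95%, binomial for the plotted library sums and for the ratio of wild type to knockout, and Poisson elsewhere. Spike-in RNAs named in the protocol were not used here.

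Same-numbered libraries deviated together from their group means over the tested miRNAs, with correlations of 0.322 to 0.638 in HCT116, 0.292 to 0.462 in HEK293E and 0.152 to 0.671 in the serum experiment. The numbers may therefore pair the samples, which the labels do not state. Libraries with different numbers were not compared, so the pairing was not tested. The main fits had no replicate block. Positions used GENCODE 29 on hg38, from the mature coordinates on the same strand; sequences came from RefSeq.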

Additional observations from a re-analysis of the deposited data

How the results depend on the processing

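Family sums kept their sign in every alternative run. As log2 ratios they moved beyond the replicate spread to -3.25 in HCT116 and -1.66 in HEK293E on the scale of miRNAs made without DROSHA, to -1.51 in HEK293E with the lowest copy, to -0.49 (TMM), -1.12 (DROSHA-independent scale) and -0.63 (without the most abundant member) for serum, and to 0.63 (TMM) and 0.070 (DROSHA-independent scale) between lines. Leaving out libraries gave -1.97 to -1.34, -1.21 to -0.89, -0.96 to -0.82 and 1.58 to 1.83. The difference in detected members depended on depth by construction. As deposited it was -17.7 (HCT116), -13.0 (HEK293E), 1.67 (serum, reversed) and -4.33 (lines, reversed). At the depth of the shallowest replicated library, chosen after seeing the data, it was -7.50, -9.19, -3.16 and 6.03, and counting members with at least 3 reads -0.31, -0.82, -0.93 and 2.09. Without the filter, which tests more members, calls were 6 (HCT116), 4 (HEK293E), 8 (serum, 6 lower and 2 higher) and 6 (lines). In the same order, 18.2%, 7.54%, 15.6% and 24.2% of all miRNAs fitted without the filter were called. No such share is given for the joint fit, the DROSHA-independent scale, the lowest copy or the fits without 1 library. Their counts show only how calls moved, not whether members were called more often than other miRNAs. The joint fit of 18 libraries tested 9 members and called 4, 5, 4 and 4 of them. For serum it called none higher, and miR-548aq-5p and miR-548j-5p were not tested. There miR-548b-3p lost its call and miR-548f-3p (7 reads against 0) was called lower. Calls were 1 in HEK293E on the DROSHA-independent scale and 1 between lines with the lowest copy, since miR-548f-3p has copies at 0; the cause of the other changes was not tested. Leaving out 1 library gave 2 in HCT116, 1 to 2 in HEK293E, 4 to 6 for serum, 2 between lines and 0 to 1 for the interaction. With the replicate block the calls were 2 in HCT116, 2 in HEK293E, 8 for serum and 2 between lines. Over all miRNAs tested, the block moved the share called from 59.6% to 73.1%, 26.4% to 44.0%, 45.8% to 63.6% and 64.0% to 63.4%. Between lines same-numbered libraries did not deviate together (correlations -0.12 to 0.126). No family call changed with the block other than those of miR-548l and miR-548a-3p for serum. Signs turned only for members that were not called. miR-548f-3p in HEK293E was -0.35 on the DROSHA-independent scale. For serum, leaving out 1 library gave -0.43 to 0.063 for miR-548ar-3p, -0.44 to 0.023 for miR-548e-5p, -0.37 to 0.032 for miR-548n, -0.32 to 0.11 for miR-548v and -0.057 to 0.14 for miR-548e-3p, which was -0.57 on the DROSHA-independent scale and -0.12 in the joint fit. Between lines miR-548a-3p was -0.075 to 0.44 without 1 library, and -0.41 when scaled to DROSHA-independent miRNAs. In the interaction miR-548b-3p ranged from -5.71 to 2.11, the extremes without HEK293E p140 replicate 3 and HCT116 p140 replicate 2, and miR-548e-3p from -0.48 to 1.10 without 1 library, and 1.47 on the DROSHA-independent scale. Among single members, 332 values kept sign and side of the threshold, 13 lost the call, 9 gained it and 19 turned. Low counts limited most members: with p140 the family had 9 to 29 reads per HCT116 library.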
